A study of Mus musculus with 24 samples.

Results

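Esr1, the gene of oestrogen receptor alpha, was followed through 6 mouse mammosphere comparisons together with 5 genes known to respond to that receptor, namely Pgr, Greb1, Car12, Cited1 and Myb. These 6 genes were taken by symbol from the 6 deposited tables, in which 15323 genes were listed at least once. They were chosen by values of these same tables, chiefly their group means in the comparisons with Myc-ER, a fusion of Myc to the oestrogen receptor (ER). Their values in those comparisons are therefore a description and are not evidence in themselves. Esr1, Greb1 and Car12 were listed in all 6 tables, Pgr in 4, and Cited1 and Myb in 3 each.

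Mammospheres are floating spheres grown from mammary cells without attachment. All mice were FVB/Hsd, and 24 polyadenylated RNA libraries fell into 8 groups. Wild-type cells from the normal gland of 7-week-old mice carried the empty lentivirus L-pWPI (3 libraries) or L-pWPI-MycER (3 libraries), both at passage 3 and 72 h after plating. Tumour mammospheres came from uninfected MMTV-ErbB2 mice aged 12 to 15 weeks at passage 6 to 7, either untreated (5 libraries) or given 2.5 µM Nutlin-3 for 72 h (3 libraries). Nutlin-3 blocks the binding of Mdm2 to p53, and the MMTV promoter drives a mutated ErbB2 in mammary epithelium. Trp53 knockout mammospheres (2 libraries) came from normal glands at 7 weeks, uninfected, at passage 6 to 7. Cells of uninfected wild-type spheres at passage 1, also from 7-week-old mice, were sorted by PKH, a membrane dye that is diluted as cells divide. The sort gave 2 PKH-high and 3 PKH-negative libraries. PKH-negative cells infected with L-pWPI-MycER were taken at passage 3 and 72 h after plating (3 libraries). The labels name no oestrogen or tamoxifen for any group, and they describe the unsorted Myc-ER libraries as untreated. They do not say which stretch of Myc or of the receptor, or which species' sequence, the fusion holds. Only group means were deposited, so no value per library can be shown and no spread between libraries computed.

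Oestrogen receptor alpha is a transcription factor that binds DNA and activates genes once oestrogen occupies its hormone-binding part. In the mammary gland it is made by a minority of luminal cells, which answer oestrogen by making the progesterone receptor and paracrine growth signals. In fusions of the Myc-ER kind the hormone-binding part of the receptor is joined to Myc, and heat shock protein complexes hold the fused protein inactive until a ligand binds. Such a fusion may lack the part of the receptor that contacts DNA, so reads assigned to Esr1 need not stand for a working oestrogen receptor.

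The proximal promoters of 3 response genes are shown because these genes went different ways beside the fusion. Each is 300 bases from RefSeq (GRCm38.p6), 250 before the start of transcription and 50 from it on, written along the gene's own strand. Capitals mark the half-site of the oestrogen response element, GGTCA on either strand. The window of Car12 is chr9:66713436-66713735 on the plus strand, that of Pgr is chr9:8899583-8899882 on the plus strand, and that of the first Greb1 promoter is chr12:16800837-16801136 on the minus strand.
Car12: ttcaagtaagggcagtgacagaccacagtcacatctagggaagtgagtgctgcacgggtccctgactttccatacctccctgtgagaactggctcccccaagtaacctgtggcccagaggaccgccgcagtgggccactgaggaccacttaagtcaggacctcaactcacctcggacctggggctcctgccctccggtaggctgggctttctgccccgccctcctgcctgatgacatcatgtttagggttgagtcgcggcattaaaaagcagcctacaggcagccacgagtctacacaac
Pgr: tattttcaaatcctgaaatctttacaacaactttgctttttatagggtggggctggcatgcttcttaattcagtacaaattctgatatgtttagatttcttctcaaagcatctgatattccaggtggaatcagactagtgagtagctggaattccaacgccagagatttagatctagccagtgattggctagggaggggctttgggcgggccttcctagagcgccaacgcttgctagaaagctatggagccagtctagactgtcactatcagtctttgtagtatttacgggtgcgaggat
Greb1: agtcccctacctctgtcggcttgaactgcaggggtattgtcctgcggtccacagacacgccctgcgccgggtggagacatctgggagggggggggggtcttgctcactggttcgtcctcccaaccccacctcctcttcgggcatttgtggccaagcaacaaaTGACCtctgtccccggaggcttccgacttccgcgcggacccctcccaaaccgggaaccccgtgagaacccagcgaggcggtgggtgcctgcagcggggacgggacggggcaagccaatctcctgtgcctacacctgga
The Greb1 window held 1 half-site, 88 bases before the start, and those of Car12 and Pgr held none. All 6 genes had an entry, with 10 promoter windows in all, of which 5 held a half-site. The full palindrome GGTCANNNTGACC occurred in 0 of these windows, as did the E-box CACGTG, the motif Myc binds. Among all 32851 promoter windows of the same length, 40.5% held a half-site on either strand, 0.0700% the palindrome and 7.15% the E-box. These are matches of letters in a short window and say nothing about binding elsewhere.

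The whole Esr1 gene lies at chr10:4611593-5005614 on the plus strand, Car12 at chr9:66713686-66766845 on the plus strand and Pgr at chr9:8899833-8968611 on the plus strand (GRCm38, GENCODE M21). Greb1 lies at chr12:16670615-16800886, Cited1 at chrX:102247381-102252181 and Myb at chr10:21124935-21160984, all on the minus strand. The group means of a table summed to between 36651122 and 48054435 normalised counts. In unsorted empty-vector spheres the authors' mean per kilobase of exon was 14699 for the fibroblast collagen gene Col1a1 and 16706 for Dcn, a fibroblast proteoglycan. The same measure was 527 for the luminal keratin Krt8 and 264 for the epithelial adhesion gene Epcam, so the genes that define mammary epithelium were present but low beside fibroblast genes. In the Trp53 knockout the authors' mean of Epcam was 7.88 against 596 in the empty-vector spheres, and that of the basal keratin Krt14 was 1.02 against 246. Krt8 was likewise low at 33.5 against 1062, but not all epithelial genes fell. The luminal keratin Krt18 had 1559 against 812 and the basal gene Trp63 24.0 against 26.8, and neither was called. In these bulk libraries fewer cells of a type and less RNA per cell cannot be told apart.

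Esr1 counts rose with the fusion in unsorted and in PKH-negative cells. The authors' mean in PKH-negative cells was 80.0 without the fusion and 256081 with it, a 3200-fold ratio, which took Esr1 from rank 11846 to rank 3 of the 14382 genes of that table by mean level. In the unsorted comparison the means were 129 and 152198, a 1180-fold ratio, and Esr1 went from rank 11041 to rank 7 of 13873 genes. Esr1 reads made up 0.566% of the summed means in PKH-negative Myc-ER cells and 0.374% in unsorted Myc-ER cells. Its log2 fold change in the authors' deposited table was 10.68 ± 0.36 in PKH-negative cells and 6.65 ± 0.69 in unsorted cells, the largest increase of each table. Here and below, ± is the standard error implied by the authors' p-value. The next largest increases in the authors' deposited tables were 6.79 for Rmrp in PKH-negative cells and 5.05 for Lingo3 in unsorted cells. Rmrp and Rpph1 encode RNAs of ribonuclease complexes that are not normally polyadenylated, and in the PKH-negative comparison the authors' means rose from 0.383 to 281 and from 0.682 to 244. The part of library preparation in that comparison was not tested.

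**Figure D1:**
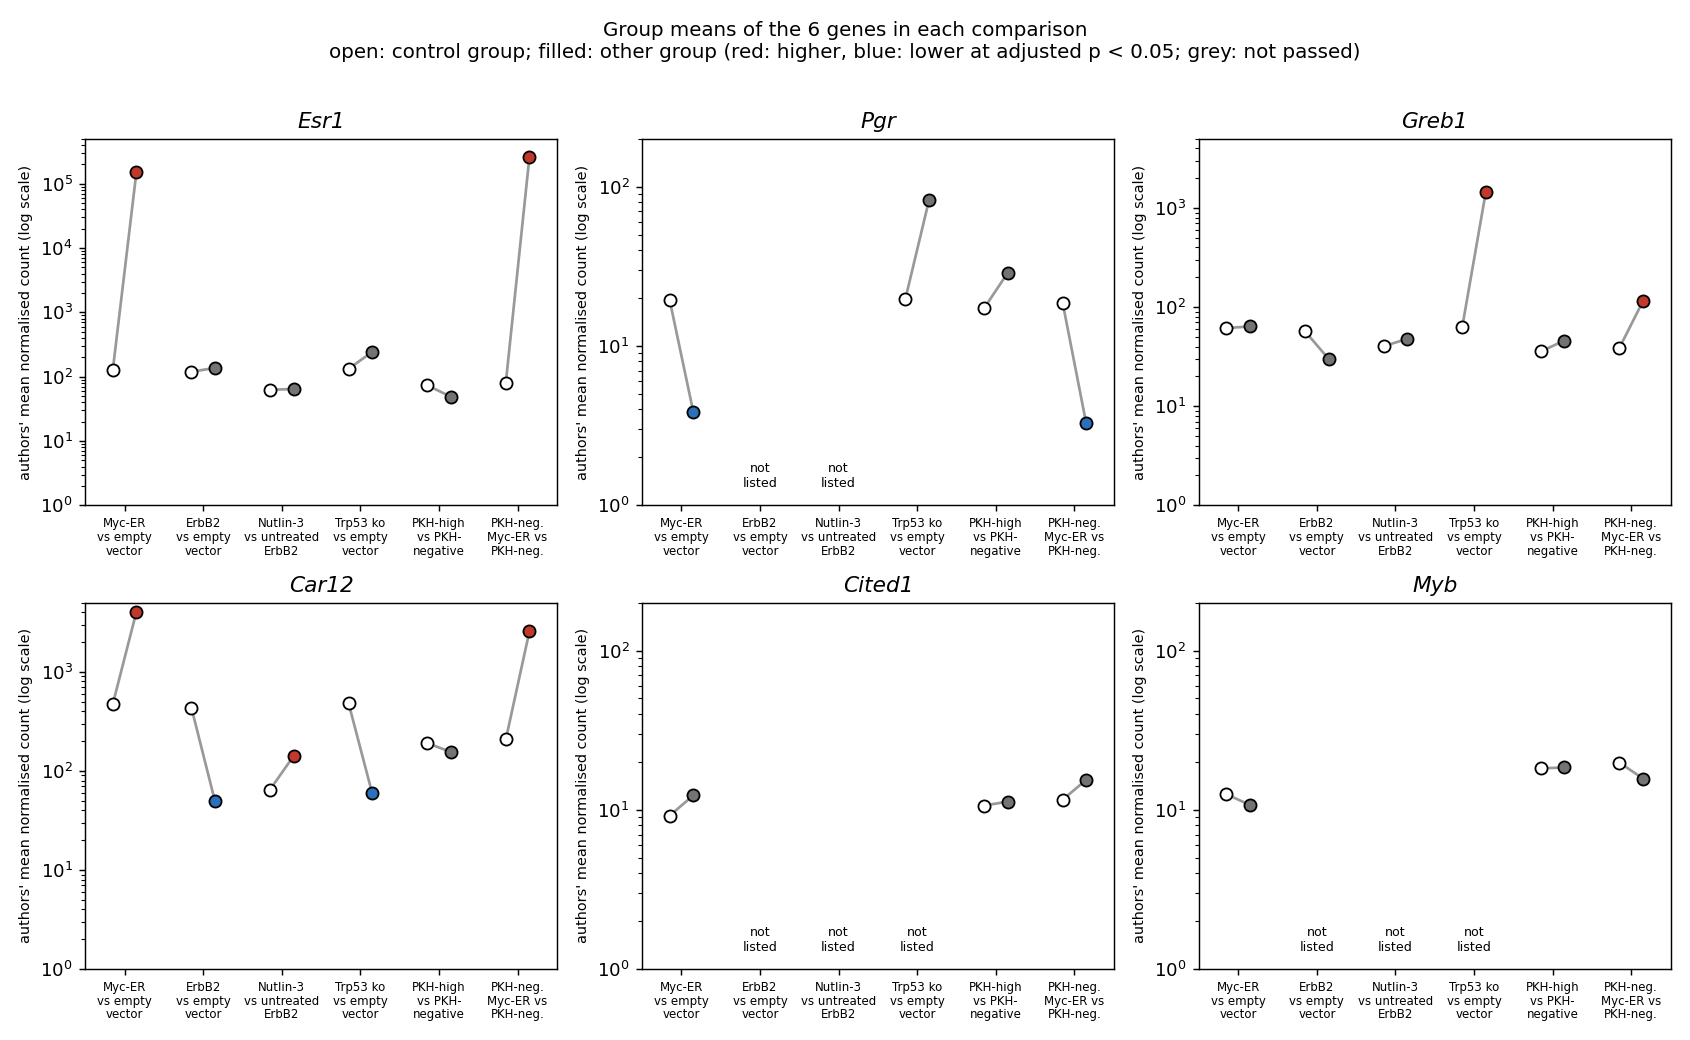
Authors' mean normalised count of each gene in the 2 groups of each comparison, on a log scale, with open points for the control group and filled points for the other group. Esr1 reaches 152198 and 256081 beside the fusion and stays between 48.7 and 243 elsewhere, Pgr is lowest, of the groups where it is listed, in both Myc-ER groups, Greb1 is highest in the Trp53 knockout, and Car12 goes up or down in 5 of 6 comparisons.

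Myc, the other part of the fusion, rose less. In the authors' deposited tables its mean was 2975 in empty-vector and 16782 in Myc-ER spheres (log2 fold change 2.45 ± 0.20), and 5996 and 28517 in PKH-negative cells without and with the fusion (2.03 ± 0.39). The increase in mean counts was 11.01 times as large for Esr1 as for Myc in unsorted cells and 11.4 times in PKH-negative cells. Divided by the exonic length of each gene, 13.661 kb for Esr1 and 2.717 kb for Myc, the increases differed by factors of 2.19 and 2.26. The 2 comparisons share no libraries. Reads of the fusion and of the cells' own genes cannot be told apart in these tables, and since the stretch of each gene in the fusion is not given, the length that applies to it is not known.

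Without the fusion Esr1 was low and passed the authors' threshold, an adjusted p under 0.05, in none of the other 4 comparisons. On the scale of the unsorted Myc-ER table the order of levels was 129 in empty-vector spheres, 148 in ErbB2 tumour spheres and 238 in the Trp53 knockout. Neither of the latter was called against the empty vector in the authors' deposited tables, where the log2 fold changes were 0.18 ± 0.76 for ErbB2 (adjusted p = 0.899 by DESeq2) and 0.78 ± 0.80 for the knockout (adjusted p = 0.441 by DESeq2). The implied errors were as large as these differences. The mean of Esr1 was 48.7 in PKH-high and 73.6 in PKH-negative cells, a log2 fold change of −0.58 ± 0.35 in the authors' deposited table (adjusted p = 0.209 by DESeq2). Nutlin-3 left it at 64.4 against 62.5 in paired untreated tumour spheres (authors' deposited table, adjusted p = 0.954 by DESeq2). That untreated mean is of 3 libraries, while the mean over all 5 untreated tumour libraries was 137 in the ErbB2 comparison, each on its own scale. The place of ErbB2 spheres in the order of levels thus depends on which libraries are taken.

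Of the response genes chosen with Esr1, only Car12 was called higher with the fusion in both settings. Car12 is a carbonic anhydrase at the cell surface that answers the oestrogen receptor in human breast cancer cells. Its authors' mean was 475 in empty-vector and 4043 in Myc-ER spheres, 8.51-fold higher, and 208 and 2555 in PKH-negative cells without and with the fusion, 12.3-fold higher. The log2 fold changes in the authors' deposited tables were 2.86 ± 0.41 and 3.46 ± 0.27. In ErbB2 tumour and Trp53 knockout spheres Car12 moved the other way. The mean was 434 in empty-vector and 49.3 in ErbB2 spheres (authors' deposited table, log2 fold change −2.93 ± 0.65, adjusted p = 7.33e-05 by DESeq2). It was 481 in empty-vector and 59.4 in knockout spheres (authors' deposited table, −2.86 ± 0.57, adjusted p = 4.11e-06 by DESeq2). On the scale of the unsorted Myc-ER table the levels ran from 53.5 in ErbB2 and 58.3 in knockout spheres to 475 with the empty vector and 4043 with Myc-ER. The ErbB2 and knockout groups were not compared with each other. These 3 comparisons share the empty-vector libraries, and the ErbB2 and knockout spheres were also uninfected and at a later passage, which cannot be told apart from genotype. In PKH-high cells the mean of 156 against 191 did not pass (authors' deposited table, −0.29 ± 0.31, adjusted p = 0.516 by DESeq2). Nutlin-3 raised Car12 in ErbB2 spheres from 64.9 to 141 (authors' deposited table, paired log2 fold change 1.31, adjusted p = 0.0027 by DESeq2).

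Pgr, the progesterone receptor gene and a classical oestrogen target of the mammary gland, fell beside the fusion. Its authors' mean was 19.4 in empty-vector and 3.87 in Myc-ER spheres, and 18.7 and 3.27 in PKH-negative cells without and with the fusion. The log2 fold changes in the authors' deposited tables were −1.69 ± 0.67 and −2.02 ± 0.55, both past the threshold, but the unsorted call was lost at an adjusted p of 0.01. These are levels close to the floor of 10 that the tables set on the mean of a comparison. The Trp53 knockout held 82.2 against 19.8 with the empty vector, which missed the threshold (authors' deposited table, 1.82 ± 0.83, adjusted p = 0.0588 by DESeq2). PKH-high cells held 28.7 against 17.2 in PKH-negative cells (authors' deposited table, 0.67 ± 0.67, adjusted p = 0.490 by DESeq2). Pgr was under the floor of the ErbB2 table, which with the empty-vector mean of 17.9 on that table's scale allows a mean of at most 5.28 in ErbB2 spheres. It was also under the floor of the Nutlin-3 table.

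Greb1, an oestrogen-induced cofactor of the receptor in human breast cancer cells, did not follow Car12. In unsorted cells its authors' mean was 61.4 with the empty vector and 63.8 with Myc-ER (authors' deposited table, log2 fold change 0.05 ± 0.57), and it was not called. In PKH-negative cells it rose from 38.8 to 115 (authors' deposited table, 1.47 ± 0.34). Whether these 2 changes differ from each other was not tested. The highest Greb1 level of the series was in the Trp53 knockout, at 1454 against 63.0 with the empty vector, a 23.1-fold ratio (authors' deposited table, 4.35 ± 0.50, adjusted p = 2.39e-16 by DESeq2, 2 knockout libraries). ErbB2 spheres held 30.0 against 56.9 (authors' deposited table, −0.82 ± 0.81, adjusted p = 0.498 by DESeq2), and PKH-high cells 46.0 against 35.7 (authors' deposited table, 0.35 ± 0.51, adjusted p = 0.657 by DESeq2). With Nutlin-3 the mean was 47.8 against 40.3 untreated, while the paired log2 fold change in the authors' deposited table was −0.07 (adjusted p = 0.954 by DESeq2), so mean and paired change differed in sign. Beside the Greb1 increase in the knockout, 8 of 9 listed macrophage markers fell and 1 rose, and 7 of 8 endothelial markers and all 6 mast cell markers fell. Of 8 fibroblast markers 0 passed the threshold of DESeq2 in the authors' deposited table (2 at an unadjusted p under 0.05). Of all genes 22.3% were called higher and 23.6% lower there. The summed means were 942 against 4122 for the macrophage list, 418 against 6684 for the endothelial list, 282 against 3605 for the mast cell list and 469078 against 514170 for the fibroblast list. Kit, which is also on the alveolar and luminal progenitor list, alone held 277 against 2124 of the mast cell sums. Cd14, on that list too and the macrophage marker that rose, held 811 against 342 of the macrophage sums. The macrophage genes C1qa, C1qb and Tyrobp, the mast cell genes Fcer1a and Ms4a2 and the endothelial gene Sox17 were listed at 0 in the knockout. The part of cell makeup in the Greb1 result was not tested.

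Cited1, a transcriptional coactivator that binds the receptor, and Myb, a transcription factor induced by oestrogen in human breast cancer cells, stayed near the floor. Cited1 had authors' means of 9.19 and 12.3 in empty-vector and Myc-ER spheres, 11.6 and 15.4 in PKH-negative cells without and with the fusion, and 11.3 in PKH-high against 10.6 in PKH-negative cells. Myb had 12.5 and 10.7, 19.8 and 15.7, and 18.5 against 18.2 in the same order. Neither was called in any of these 3 tables, with log2 fold changes between −0.20 and 0.39 in the authors' deposited tables. The implied standard error of Cited1 in unsorted cells was 0.54, so a change of that size was not detectable at this depth. Neither was listed in the ErbB2, Nutlin-3 or Trp53 knockout tables.

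In counts, 2 of the 6 genes were higher and 1 lower in unsorted Myc-ER spheres, where 26.7% of all genes in the authors' deposited table were called higher and 24.1% lower. In PKH-negative Myc-ER cells 3 were higher and 1 lower, beside 18.9% and 18.5% of all genes. Since these 2 contrasts were in view when the genes were picked, nothing is read from those counts. For the ErbB2 spheres 3 of the genes were listed, with 0 higher and 1 lower, beside 13.5% and 13.6% of all genes. The knockout listed 4, with 1 higher and 1 lower, beside 22.3% and 23.6%. Nutlin-3 listed 3, with 1 higher and 0 lower, beside 7.71% and 7.03%. PKH-high listed 6, none called by DESeq2 at the authors' threshold, beside 15.6% higher and 15.1% lower, and none had an unadjusted p under 0.05.

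To see whether the wider oestrogen response moved with Esr1 counts, a list of 40 oestrogen-response genes was read in the same tables. In unsorted cells 37 were listed, of which 6 rose, 11 fell and 20 did not pass. These are 16.2% higher and 29.7% lower, beside 26.7% and 24.1% of all genes in the authors' deposited table, so the share that fell was near the background, with a median log2 fold change of −0.42 against −0.02 for all genes. In PKH-negative cells 37 were listed, of which 5 rose, 15 fell and 17 did not pass. These are 13.5% higher and 40.5% lower, beside 18.9% and 18.5% of all genes, with a median of −0.19 against 0.03 for all genes. Leaving out the genes Pgr, Greb1, Car12, Cited1 and Myb gave 5 higher and 10 lower of 32 in unsorted cells, and 3 higher and 14 lower of 32 in PKH-negative cells. The list was drawn up with earlier results of these data known, and its genes respond to oestrogen mostly by evidence from human breast cancer cells or rodent uterus.

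**Figure D2:**
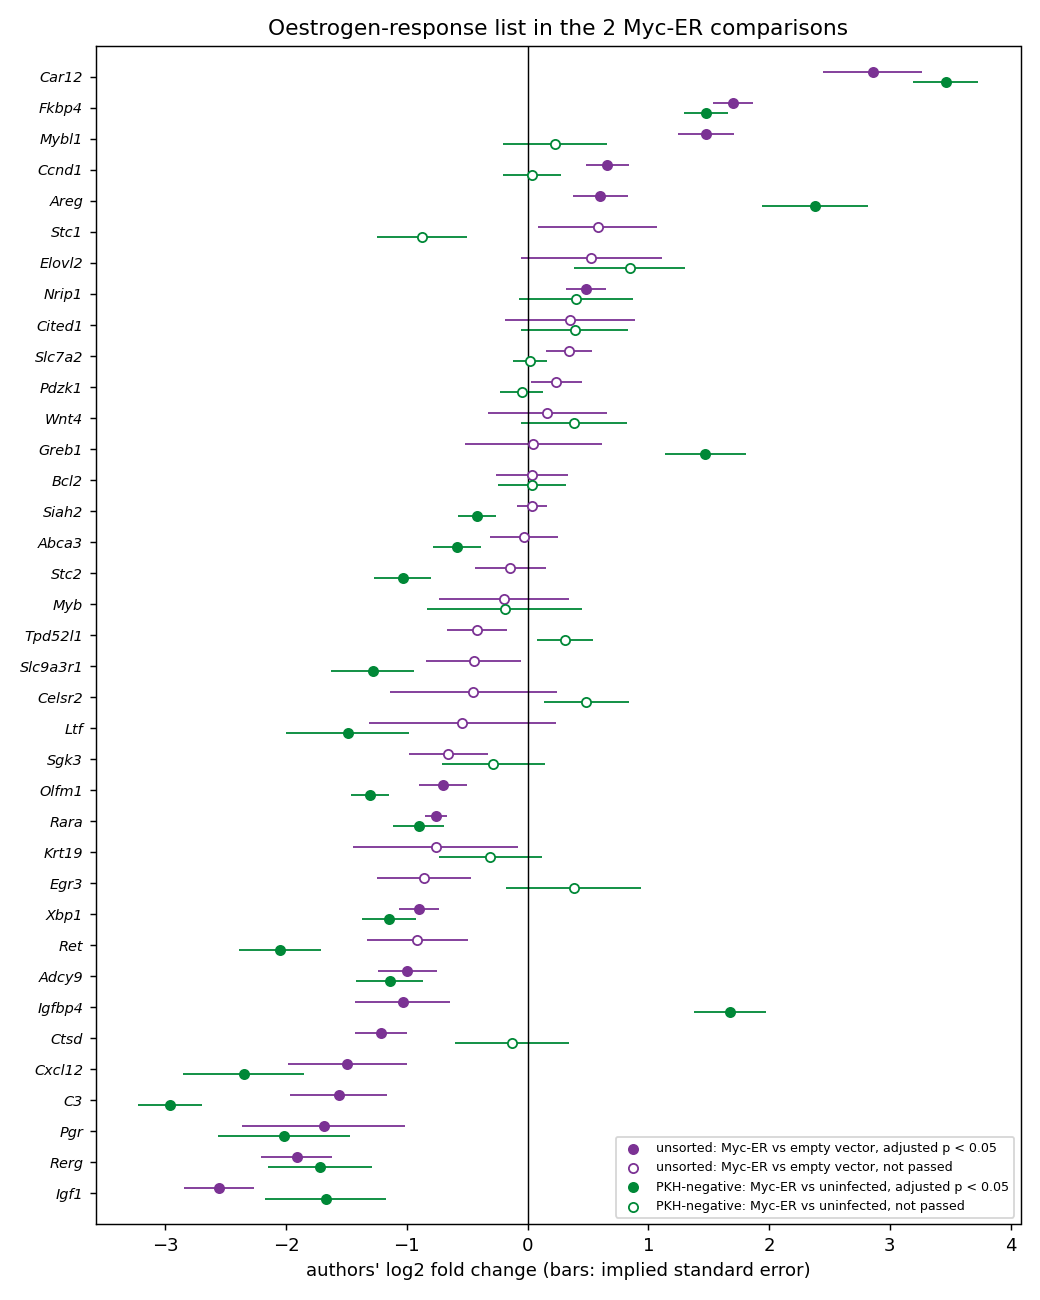
Authors' log2 fold change of each of the 37 listed oestrogen-response genes in unsorted (purple) and PKH-negative (green) Myc-ER comparisons, with the implied standard error as bars and filled points for adjusted p under 0.05. Of the genes with filled points in both comparisons, Car12, Fkbp4 and Areg lie right of 0 in both, 9 with Pgr among them lie left of 0 in both, and Igfbp4 lies on opposite sides.

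Higher in both were 3 genes, which are 3 of the 6 that rose in unsorted cells and 3 of the 5 that rose in PKH-negative cells. Besides Car12 these were Fkbp4 and Areg. Fkbp4, an Hsp90 co-chaperone of steroid receptors, went from 3487 to 11490 in unsorted and from 3911 to 11100 in PKH-negative cells in the authors' deposited tables. Areg, the epidermal growth factor receptor ligand that carries the oestrogen signal in duct growth, went from 191 to 292 and from 47.7 to 315. Lower in both were 9 genes, which are 9 of the 11 that fell in unsorted cells and 9 of the 15 that fell in PKH-negative cells, namely Pgr, Xbp1, Cxcl12, Rara, Rerg, Igf1, Adcy9, Olfm1 and C3. Igf1, a growth factor made largely by stromal cells, fell from 4521 to 718 and from 2630 to 646 in the authors' deposited tables. Rerg, a Ras-like growth inhibitor, fell from 929 to 235 and from 412 to 107. C3, a complement gene and oestrogen target of the rodent uterus, fell from 9770 to 3031 and from 43584 to 5113. Cxcl12, a chemokine, fell from 2747 to 855 and from 4167 to 577. Igfbp4, an insulin-like growth factor binding protein, was the 1 gene called in opposite directions, falling from 2398 to 1110 in unsorted cells (authors' deposited table, −1.04 ± 0.39) and rising from 449 to 1534 in PKH-negative cells (authors' deposited table, 1.68 ± 0.30). That difference was not tested, and 13 genes were called in neither table.

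Markers of other cell types moved in the same comparisons. In unsorted Myc-ER spheres 4 of 7 listed fibroblast markers, 7 of 9 macrophage markers and 5 of 8 endothelial markers fell, beside 24.1% of all genes. None of these lists had a gene that rose by the authors' deposited table, beside 26.7% of all genes. Their summed means were 226116 against 490033 for fibroblast, 1848 against 4030 for macrophage and 2250 against 6517 for endothelial genes. In PKH-negative Myc-ER cells 3 of 8 fibroblast, 2 of 5 macrophage and 5 of 7 endothelial markers fell, beside 18.5% of all genes. The summed means were 240853 against 363447, 1223 against 1491 and 1121 against 4717. Mast cell markers had 1 of 6 lower in each comparison, basal markers 1 of 6 and 1 of 5 lower, and alveolar and luminal progenitor markers 1 higher and 2 lower of 7 and 3 lower of 5. Of the lymphocyte markers 2 of 2 fell in unsorted cells and 2 of 3 rose in PKH-negative cells, with summed means of 31.8 against 107 and 136 against 18.3. Of the adipocyte markers 1 of 1 rose in unsorted and 1 of 2 fell in PKH-negative cells. No marker of the fibroblast, macrophage and endothelial lists was listed at 0 in either Myc-ER group. Hormone-sensing luminal markers other than the 6 genes had summed means of 5493 against 6147 in unsorted cells, with 1 of 9 higher and 1 lower. In PKH-negative cells the sums were 13352 against 30953, with 1 of 9 higher and 3 lower. Ly6a, 1 of the 3 lower, alone held 11299 and 27292.5 of these sums. Areg was the gene higher, and Krt8, Krt18, Gata3 and Prlr were not called there. The part of cell makeup in the values of the oestrogen-response list was not tested in either Myc-ER comparison. PKH-negative Myc-ER cells also differ from their controls in passage and infection. The labels give 72 h after plating for these cells and no time for the sorted controls. None of this can be told apart from the fusion there, while the unsorted groups share passage, infection and time after plating.

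**Figure D3:**
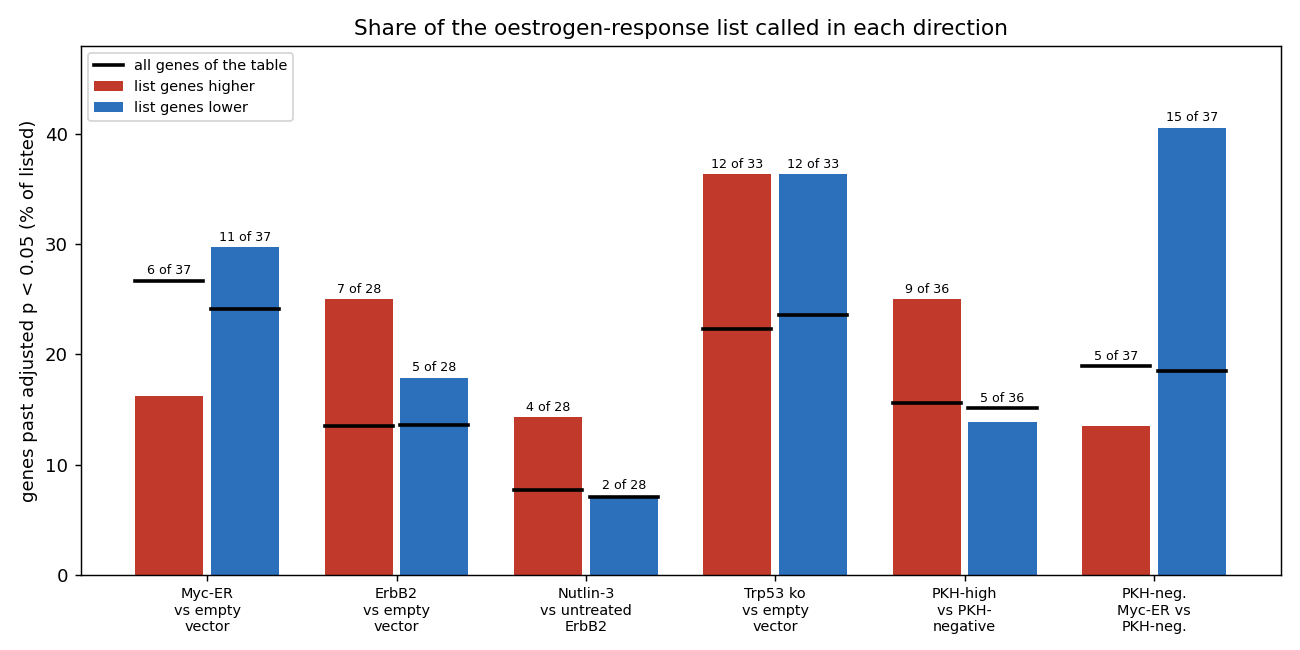
Share of listed oestrogen-response genes called higher (red) or lower (blue) by the authors' adjusted p under 0.05 in each comparison, with a black line for the share of all genes in that table and the gene counts above the bars. In both Myc-ER comparisons the share higher lies under the line and the share lower above it, while in the Trp53 knockout both lie above it with 12 of 33 genes each.

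In the other comparisons the list's genes went both ways. ErbB2 tumour spheres had 7 genes higher and 5 lower of 28, or 25.0% and 17.9% beside 13.5% and 13.6% of all genes. The median log2 fold change was 0.02 for the list, 0.20 without the members, and 0.02 for all genes. C3 rose from 8920 to 93082 and Igfbp4 from 2194 to 10836 there, while Ret, a receptor tyrosine kinase, fell from 354 to 27.8 in the authors' deposited table. In the untreated libraries paired with Nutlin-3 the mean of C3 was 45376, on that comparison's own scale. In ErbB2 spheres against the empty vector, 4 of 6 listed macrophage and 3 of 4 endothelial markers fell. So did 2 of 2 mast cell and 3 of 4 alveolar and luminal progenitor markers. Summed means in that order were 771 against 3337, 634 against 1680, 56.2 against 1951 and 299.8 against 2730. Kit, on both the mast cell and the alveolar list, alone held 55.9 against 1917 in each of these lists. Of 8 fibroblast markers 1 rose and 3 fell, with 344848 against 464123. The alveolar gene Elf5 and the endothelial gene Sox17 were listed at 0 in ErbB2 spheres. In the Trp53 knockout 12 genes of the response list were higher and 12 lower of 33, or 36.4% each beside 22.3% and 23.6% of all genes. The medians were −0.06 for the list and 0.01 for all genes. Rerg fell from 945 to 6.07 (authors' deposited table, −6.97 ± 0.53) and the cadherin gene Celsr2 from 121 to 6.45, while C3 rose from 9882 to 102835. Both comparisons use the empty-vector libraries. Nutlin-3 gave 4 higher and 2 lower of 28, or 14.3% and 7.14% beside 7.71% and 7.03% of all genes, with medians of 0.09 and 0.03. Among the called genes, Ctsd, a lysosomal protease, went from 138549 to 284140. Stc1, a secreted glycoprotein, went from 4690 to 2061 (authors' deposited table). In PKH-high cells 9 were higher and 5 lower of 36, or 25.0% and 13.9% beside 15.6% and 15.1% of all genes, with medians of 0.07 and 0.01. The highest were Krt19, a luminal keratin, from 32.6 to 1112, Celsr2 from 20.9 to 372 and Ltf, lactoferrin, from 189 to 2123 (authors' deposited table). In the same comparison 6 of 7 listed basal markers and 6 of 7 alveolar and luminal progenitor markers rose, as did 9 of 9 macrophage markers, whose summed means were 47539 against 1394. Of 8 endothelial markers 6 rose and 1 fell, with 39643 against 4347, and of 8 fibroblast markers 1 rose and 4 fell, with 190140 against 334190. The part of cell makeup in the list's values was not tested in these comparisons.

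Most genes of a list of receptor chaperones, the proteins that hold the receptor's hormone-binding part and their relatives, rose with the fusion. Of 9 receptor chaperone genes 7 rose and 1 fell in unsorted Myc-ER spheres and 5 rose in PKH-negative Myc-ER cells by the authors' deposited tables, with median log2 fold changes of 0.69 and 0.66 against −0.02 and 0.03 for all genes, of which 26.7% and 18.9% rose. Ppid, an immunophilin of the Hsp90 complex, went from 1960 to 5418 and from 2067 to 5169. Hsp90aa1 went from 23375 to 43942 and from 34144 to 54273, and Hsp90ab1 from 73236 to 119109 and from 75107 to 123596. Fkbp5, the co-chaperone that competes with Fkbp4, fell in unsorted cells from 17608 to 12543 (authors' deposited table, −0.49 ± 0.12). It was not called in PKH-negative Myc-ER cells, and Hsp90b1 was called in neither Myc-ER comparison. ErbB2 and knockout spheres had 2 and 3 of 9 chaperone genes higher, or 22.2% and 33.3% beside 13.5% and 22.3% of all genes. They were led by Fkbp4 at 0.78 ± 0.22 and 1.14 ± 0.22 in the authors' deposited tables. Nutlin-3 had 0 past the threshold of DESeq2 (2 at an unadjusted p under 0.05). In PKH-high cells 2 of 9 fell, Stip1 and Hsp90b1, beside 15.1% of all genes, and 0 rose by DESeq2 (1 at an unadjusted p under 0.05).

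**Figure D4:**
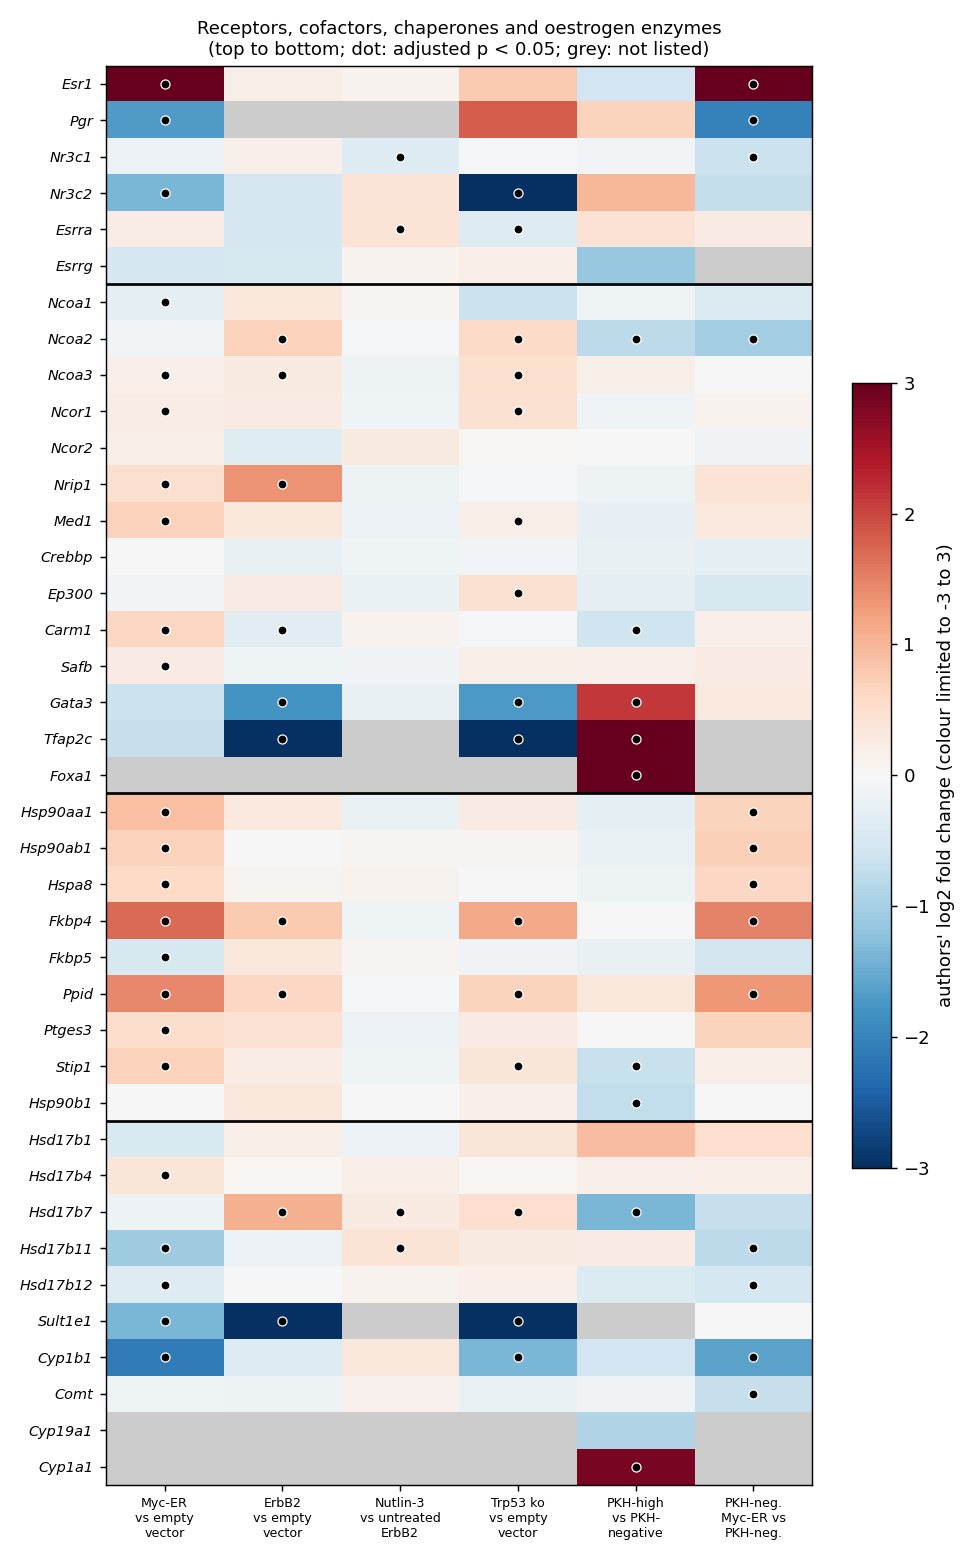
Authors' log2 fold change (colour, limited to the range −3 to 3) of receptor, cofactor, chaperone and oestrogen enzyme genes in the 6 comparisons, with dots for adjusted p under 0.05 and grey for genes not listed. Chaperone genes are red with dots mainly in the 2 Myc-ER columns, and the luminal factors Tfap2c and Gata3 are blue in ErbB2 and knockout spheres and red in PKH-high cells.

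Called cofactors of the receptor had log2 fold changes between −1.04 and 0.69 beside the fusion. In unsorted Myc-ER spheres 6 of 14 listed cofactor and pioneer factor genes rose and 1 fell, or 42.9% and 7.14% beside 26.7% and 24.1% of all genes. They were led by the Mediator subunit Med1 (2976 to 4814) and the arginine methyltransferase Carm1 (3421 to 5254) in the authors' deposited table. In PKH-negative Myc-ER cells 0 of 13 rose by DESeq2 (0 at an unadjusted p under 0.05) and 1 fell, beside 18.9% and 18.5% of all genes. The gene that fell was the coactivator Ncoa2, from 6477 to 3099. In PKH-high cells 3 of 15 genes of this list rose and 2 fell, or 20% and 13.3% beside 15.6% and 15.1% of all genes. Those that rose were Tfap2c, Foxa1 and Gata3, among the factors that open chromatin for the receptor in luminal cells. Tfap2c went from 3.64 to 158, Foxa1 from 1.97 to 36.4 and Gata3 from 94.4 to 438 in PKH-high cells in the authors' deposited table. Foxa1 was not listed elsewhere. Tfap2c fell in ErbB2 spheres from 38.4 to 0.960 and in the knockout from 42.5 to 1.97, and Gata3 fell from 149 to 39.99 and from 166 to 44.7. ErbB2 spheres had 3 of 14 list genes higher and 3 lower, or 21.4% each beside 13.5% and 13.6% of all genes. The knockout had 6 of 14 higher and 2 lower, or 42.9% and 14.3% beside 22.3% and 23.6% of all genes.

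The corticosteroid receptor genes fell in some comparisons and rose in none by the authors' deposited tables. Nr3c2, the mineralocorticoid receptor gene, fell in unsorted Myc-ER spheres from 66.6 to 24.6 and in the knockout from 67.9 to 6.45. Nr3c1, the glucocorticoid receptor gene, fell in PKH-negative Myc-ER cells from 4932 to 3120 and with Nutlin-3 from 3670 to 2861. Esr2, the gene of oestrogen receptor beta, and Gper1, the membrane oestrogen receptor gene, were listed in none of the 6 tables.

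Of the enzymes that handle oestrogen, Cyp1b1 and Hsd17b11 were among those lower in both Myc-ER comparisons. In unsorted Myc-ER spheres 1 of 8 listed enzyme genes rose and 4 fell, beside 26.7% and 24.1% of all genes, and in PKH-negative Myc-ER cells 0 of 8 rose by DESeq2 (0 at an unadjusted p under 0.05) and 4 fell, beside 18.9% and 18.5% of all genes. Cyp1b1, which hydroxylates oestradiol, fell from 9126 to 2035 and from 7372 to 2306 in the authors' deposited tables. Hsd17b11, a hydroxysteroid dehydrogenase gene, fell from 2341 to 1116 and from 2379 to 1370. Sult1e1, which inactivates oestrogen by sulfation, fell in unsorted Myc-ER spheres from 39.2 to 13.7 and in ErbB2 spheres from 35.96 to 1.11, and it was listed at 0 in the knockout against 39.8 with the empty vector. Cyp19a1, the aromatase gene, was listed in the PKH-high table, where it was not called.

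The paracrine genes downstream of the progesterone receptor did not all follow Pgr. Tnfsf11, the RANK ligand gene, rose in unsorted Myc-ER spheres from 70.4 to 231 (authors' deposited table, 1.58 ± 0.41), where Pgr fell, and in the knockout from 72.1 to 250. In PKH-negative Myc-ER cells, where Pgr also fell, Tnfsf11 went from 191 to 177 and was not called (authors' deposited table, −0.09 ± 0.44). It fell in PKH-high cells from 176 to 14.1. Wnt4, a ligand induced by progesterone, rose in the knockout from 15.2 to 76.6 (authors' deposited table, 2.21 ± 0.58). Rspo1, a Wnt signal enhancer, fell in unsorted Myc-ER spheres from 191 to 13.6, in ErbB2 spheres from 174 to 5.60 and in the knockout from 193 to 15.7. Calca, the calcitonin gene, rose in PKH-negative Myc-ER cells from 30.7 to 56.5 and in ErbB2 spheres from 64.4 to 130, and fell in the knockout from 71.4 to 24.1.

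Paralogs showed whether the members' changes were shared within their families. Greb1l, the paralog of Greb1, rose in the knockout from 36.1 to 238 (authors' deposited table, 2.63 ± 0.48), as Greb1 did, and also in ErbB2 spheres from 32.6 to 188 and in unsorted Myc-ER spheres from 35.4 to 64.1, where Greb1 was not called. Other carbonic anhydrase genes did not rise with Car12 in both Myc-ER settings. In unsorted Myc-ER spheres Car2 fell from 205 to 68.9 and Car6 from 197 to 34.2, and in PKH-negative Myc-ER cells Car4 fell from 294 to 28.1 while Car8 rose from 130 to 1196 in the authors' deposited tables. Car2 fell with Car12 in ErbB2 spheres, from 190 to 13.3, and in the knockout, from 210 to 5.31. Mybl2, a cell cycle relative of Myb, rose in unsorted Myc-ER spheres from 347 to 1414, in ErbB2 spheres from 318 to 792 and in the knockout from 353 to 1422. It fell with Nutlin-3 from 729 to 288 and in PKH-high cells from 1089 to 442. In PKH-negative Myc-ER cells it was not called, at 1170 against 1184. Cited4, a relative of Cited1, rose in PKH-high cells from 19.7 to 480 and was listed at 0 in the knockout against 135 with the empty vector.

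For the 3 members listed everywhere, the genes most like them in the log2 ratio of group means (pseudocount 1) over the 6 comparisons were sought among 12139 genes. For Esr1 these were Denr, Atp5a1 and Ccz1, with Pearson r of 0.998, 0.997 and 0.995. Their own ratios beside the fusion were small, from 0.38 to 0.68 on the log2 scale, so they share the shape and not the size. Greb1 was followed by Col25a1, Tspyl5 and Nmi, with r of 0.986, 0.986 and 0.981. Car12 was followed by Nmt1, Glrx3 and Senp3, with r of 0.991, 0.988 and 0.985. These are the highest of many correlations over 6 points that share control libraries, and they are given as a description.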

How the data were processed

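Polyadenylated RNA was sequenced from 24 mammosphere libraries in 8 groups. Per the submitters' processing notes DESeq2 1.10.1 gave the statistics after alignment to mm10 with TopHat2 2.0.8 and Bowtie2 2.1.0 among the tools, which also list HTSeq 0.5.3p9, SAMtools 0.1.18 and CASAVA 1.9. Their settings, and any use of strand in counting, are not given in the sources used here. Each of the 6 tables that the authors deposited holds a signal per group, the mean normalised read count over its libraries. The deposited log2 fold changes, p-values and adjusted p-values are those of the authors' DESeq2 contrasts. Only genes with a mean above 10 in the comparison are listed, per the file headers. The Nutlin-3 table paired treated and untreated libraries of 3 tumours, per the file headers. The headers call the replicates biological and name the control of 3 tables as wild-type mammospheres; the empty-vector libraries are the one unsorted wild-type control group in the labels, and the control means of the 3 tables differed only by a constant scale.

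With no values per library, the planned test was the authors' own: a gene was called at adjusted p under 0.05. A standard error was implied from each fold change and p-value (not for the paired table). Levels across tables that share a control were put on 1 scale by the median ratio of the control means. From the ErbB2 comparison 1 duplicated symbol was left out, and from the knockout comparison 3 entries that name no gene, which held 28.2% and 29.7% of the summed means. The members and all 16 gene lists were chosen with earlier results of these data known. Named genes were all 6 members, up to 4 called genes with the largest absolute fold change per list and comparison, and the 3 genes most like each member; genes shown beside a named gene for contrast were chosen after their values were seen. Alternatives were an adjusted p of 0.01, a fold change minimum of 1 (log2), a mean minimum of 50, centring on all genes, the ratio of means with a pseudocount of 10, and the list without the members. Single values of 2 listed genes are not reported here. Python 3.11.15, pandas 2.3.3, SciPy 1.17.1 and matplotlib 3.10.9 were used.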

Additional observations from a re-analysis of the deposited data

How the results depend on the processing

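Among the members, calls and directions were kept under the alternatives tried, with 2 exceptions. Pgr in unsorted Myc-ER spheres (−1.69) was no longer called at an adjusted p of 0.01, and Greb1 with Nutlin-3, not called at −0.07, had a ratio of means of the other sign (0.25, and 0.20 with a pseudocount of 10). The log2 ratio of Esr1 means, 10.20 unsorted and 11.64 in PKH-negative cells (10.10 and 11.47 with a pseudocount of 10), exceeded the authors' fold changes of 6.65 and 10.68, and the cause was not tested. That of Pgr in PKH-negative cells was −1.12 with a pseudocount of 10, by construction. With a log2 fold change of at least 1, the oestrogen-response list had 3 genes higher and 7 lower in unsorted Myc-ER spheres, 4 and 3 in ErbB2 spheres, 1 and 1 with Nutlin-3, and 7 higher in the knockout. At an adjusted p of 0.01 it had 3 higher and 2 lower in ErbB2 spheres. Without the members it had 3 higher in PKH-negative Myc-ER cells. No paired analysis was possible because the tables hold group means and the columns carry no replicate numbers; leaving out single libraries was not run for the same reason. Genes near a mean of 10, such as Cited1, Myb and Pgr, are limited by their low counts, and 2 groups had 2 libraries each.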
